A study of Mus musculus with 2 samples.

Results

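A group of 10 genes around Tbx18 on mouse chromosome 9 was examined in ureters of E14.5 mouse embryos. In chromosome order they were Tpbg, Me1, Prss35, Snap91 and Cyb5r4 on one side of Tbx18, and Nt5e, Snx14, Syncrip, Zfp949 and Plscr4 on the other. They were picked from 20629 tested genes for their position and with their ratios of knockout over control known, so those ratios are given as a description and carry no test. They were read by 16 probes, and all 16 probes and all 10 genes passed the filter on dim probes.

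By label, the knockout ureters (Tbx2/Tbx3cDKO) carried the allele Tbx18(cre/+) and were fl/fl for both Tbx2 and Tbx3. The controls were Tbx18(+/+) and fl/? for Tbx2 and for Tbx3, where the question mark stands for an allele not specified. All embryos were of the NMRI strain. Tbx18 encodes a T-box transcription factor of the early ureteric mesenchyme, and Cre made from its locus acts in those cells and their descendants, where it was to remove Tbx2 and Tbx3. A knockout RNA and a control RNA shared each of 2 Agilent arrays. The female knockout RNA carried AlexaFluor647 and the male one AlexaFluor555, so that sex cannot be told apart from dye. The sources used here do not say how many embryos gave each RNA.

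An allele made by gene targeting is inherited together with the stretch of chromosome around it. Carriers and non-carriers of such an allele can therefore also differ in the neighbouring genes, whether or not the targeted gene controls them. Here both knockout RNAs came from carriers of the Tbx18 Cre allele and both control RNAs from embryos without it. An effect of losing Tbx2 and Tbx3 and an effect of carrying the Cre-bearing chromosome, or of having 1 intact copy of Tbx18, cannot be told apart in this design. The sources used here do not give the strain of the stem cells in which the Cre allele was made.

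Of the spots, 66.9% and 71.6% were well above background in the female and male knockout channels, against 70.8% and 64.3% in the control channels, and 0 were saturated. Levels below are normalized log2 intensities, which can be compared between RNAs for 1 probe but not between probes. Ratios are log2 of knockout over control, so a value of -1 stands for a halved signal, and errors are SDs over the 2 pairs. Precision is limited throughout by having only 2 arrays. For the targeted genes, Tbx3 was at -1.09 ± 0.10 and Tbx2 at 0.86 ± 0.12 (SD, n = 2 pairs). The sign of Tbx2 is opposite to what its label names, and the sources used here do not say if either probe reads the deleted exons. Directions below are those of the ureters labelled knockout.

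Tbx18 itself had levels of 14.13 and 14.30 in the knockout RNAs (female first, here and below), against 13.98 and 14.14 in the control RNAs. The knockout RNA was the higher one in each pair, but the female knockout RNA lay just below the male control RNA. The ratio was 0.15 ± 0.0011 (SD, n = 2 pairs), a size reached or passed by 18.0% of all genes tested. Knockout embryos have 1 intact copy of Tbx18 by their label. It is not known here if the probe also reads the Cre-bearing allele.

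Around this locus the 10 genes went in both directions. Tpbg, Snap91, Nt5e and Zfp949 were lower and Prss35 and Plscr4 higher in the knockout ureters, with one sign in both pairs. Me1 was slightly higher in both pairs. Cyb5r4, Snx14 and Syncrip lay close to 0 on their brightest probes, with mean ratios of 0.081, 0.034 and -0.11. On the brightest probe of each gene, the levels of the 2 knockout RNAs did not overlap those of the 2 control RNAs for 7 of the 10 genes, beside 35.5% of all genes tested, and nothing is read from this count either way, since the genes were chosen on the same values.

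**Figure D1:**
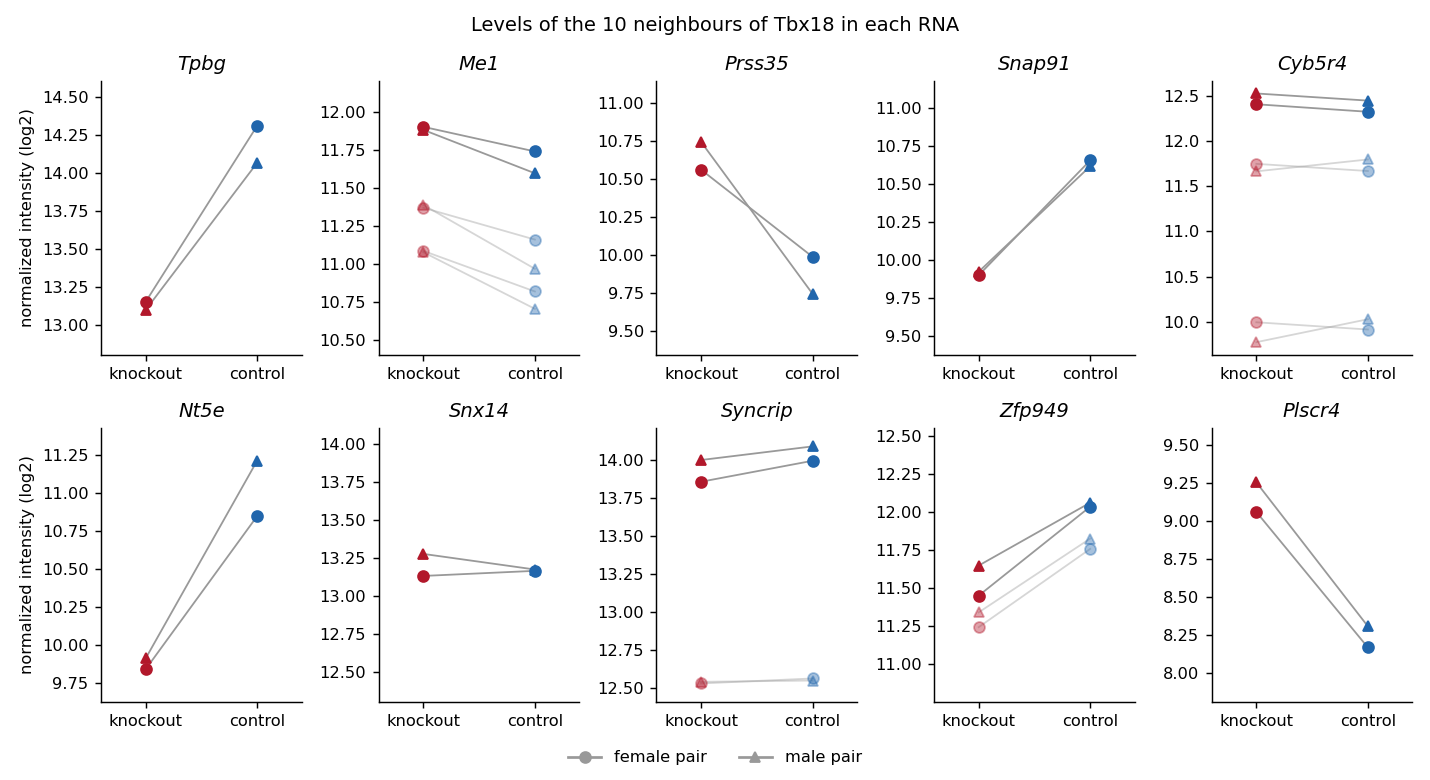
Normalized log2 intensity (vertical axis, with its own range in each panel) of each of the 10 genes in the knockout RNAs (left, red) and the control RNAs (right, blue), with grey lines joining the 2 RNAs of an array, circles for the female and triangles for the male pair, and dimmer probes of a gene drawn faint. The knockout points lie below the control points for Tpbg, Snap91, Nt5e and Zfp949 and above them for Prss35 and Plscr4, and the lines are nearly flat for Cyb5r4, Snx14 and Syncrip.

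A set of 4 of the genes act at or outside the cell surface. Nt5e, the next tested gene to Tbx18, encodes the cell-surface enzyme CD73, which turns extracellular AMP into adenosine. It had levels of 9.84 and 9.91 in the knockout RNAs, against 10.85 and 11.21 in the control RNAs. Both knockout RNAs lay below both control RNAs, and the gap was wider between the male RNAs. The pairs gave ratios of -1.01 and -1.30, and the mean of -1.15 ± 0.21 (SD, n = 2 pairs) corresponds to a 2.23-fold lower signal. This value was the 44th lowest among all genes tested.

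Tpbg, 11 places before Tbx18 among the tested genes of the chromosome, encodes a leucine-rich repeat glycoprotein of the cell surface known from zebrafish to inhibit WNT signalling. Its levels were 13.16 and 13.10 in the knockout RNAs, against 14.31 and 14.07 in the control RNAs. The 2 knockout RNAs nearly coincided and both lay well below the controls. The pairs gave ratios of -1.16 and -0.97, with a mean of -1.06 ± 0.13 (SD, n = 2 pairs), a 2.09-fold lower signal and the 56th lowest value of all genes tested.

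Prss35, 6 places before Tbx18, encodes a secreted protein of the serine protease family. It was at 10.56 and 10.74 in the knockout RNAs, against 9.99 and 9.74 in the control RNAs. The groups did not overlap, but the pairs differed more than on any other of the 16 probes. Ratios were 0.57 and 1.00, with a mean of 0.79 ± 0.30 (SD, n = 2 pairs), a 1.72-fold higher signal.

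Plscr4, 20 places after Tbx18 and the outermost gene on that side, encodes a phospholipid scramblase, a membrane protein of a family named for moving lipids between the leaflets of the plasma membrane. It was at 9.06 and 9.26 in the knockout RNAs, against 8.17 and 8.31 in the control RNAs. Both knockout RNAs lay above both controls by similar steps. The pairs gave ratios of 0.89 and 0.95, with a mean of 0.92 ± 0.039 (SD, n = 2 pairs), a 1.89-fold higher signal. In each RNA 4 of its 4 spots were well above background. With the scanner software's processed signals the mean was 1.14, and with the authors' deposited values 1.29.

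A pair of the genes belong to membrane traffic inside the cell. Snap91, 5 places before Tbx18, encodes a clathrin assembly protein that is best known from nerve terminals, where it helps to recover synaptic vesicles. It was at 9.90 and 9.92 in the knockout RNAs, against 10.66 and 10.62 in the control RNAs. Within each group the 2 RNAs differed by far less than the groups did. The pairs gave ratios of -0.76 and -0.69, with a mean of -0.72 ± 0.043 (SD, n = 2 pairs), a 1.65-fold lower signal. Snx14, a sorting nexin of the endoplasmic reticulum, lay 2 places after Tbx18, directly beyond Nt5e. Its levels were 13.13 and 13.28 in the knockout RNAs, against 13.17 and 13.18 in the control RNAs. Here the knockout RNAs stood on both sides of the controls, and the mean ratio was 0.034 ± 0.096 (SD, n = 2 pairs).

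Prss35 and Snap91 are direct neighbours that point towards each other on opposite strands, and their ratios had opposite signs. Their promoters are shown with those of Nt5e, the lowest of the 10 genes by ratio, and Plscr4, the highest, because these 4 genes carry both directions seen around the locus. The sequences are from RefSeq (GRCm38.p6), each 250 bases before to 50 bases after a gene start, given 5′ to 3′ on the strand of the gene. Capitals mark GGTGTG, the core of the site that T-box proteins bind, and the GC box GGGCGG, on either strand (CACACC and CCGCCC on the other), where copies of the GC box may overlap.
Nt5e, chr9:88327359-88327658, plus strand: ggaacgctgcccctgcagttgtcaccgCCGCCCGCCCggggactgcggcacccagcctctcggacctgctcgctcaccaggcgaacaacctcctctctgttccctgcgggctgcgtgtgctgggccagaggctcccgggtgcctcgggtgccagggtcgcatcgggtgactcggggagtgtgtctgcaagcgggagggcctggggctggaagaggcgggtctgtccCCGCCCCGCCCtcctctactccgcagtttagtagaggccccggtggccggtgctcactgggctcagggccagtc
Snap91, chr9:86880659-86880958, minus strand: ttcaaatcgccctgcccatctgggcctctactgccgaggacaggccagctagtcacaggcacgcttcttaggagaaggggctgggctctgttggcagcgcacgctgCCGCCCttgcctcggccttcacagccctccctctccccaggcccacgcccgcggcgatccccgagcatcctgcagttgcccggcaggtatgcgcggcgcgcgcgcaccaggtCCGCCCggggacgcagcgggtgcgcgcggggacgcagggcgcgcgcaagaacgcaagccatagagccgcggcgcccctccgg
Prss35, chr9:86743383-86743682, plus strand: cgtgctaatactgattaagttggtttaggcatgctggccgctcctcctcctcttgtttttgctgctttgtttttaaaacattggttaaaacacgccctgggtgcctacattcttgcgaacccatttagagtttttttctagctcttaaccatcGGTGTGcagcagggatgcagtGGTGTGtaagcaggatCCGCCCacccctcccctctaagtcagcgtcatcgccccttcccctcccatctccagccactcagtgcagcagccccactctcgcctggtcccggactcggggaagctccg
Plscr4, chr9:92457128-92457427, plus strand: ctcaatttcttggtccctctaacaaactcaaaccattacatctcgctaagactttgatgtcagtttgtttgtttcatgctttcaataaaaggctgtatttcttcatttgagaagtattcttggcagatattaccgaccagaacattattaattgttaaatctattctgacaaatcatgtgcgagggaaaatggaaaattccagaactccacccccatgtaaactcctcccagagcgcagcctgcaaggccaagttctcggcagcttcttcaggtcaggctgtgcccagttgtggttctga

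All 10 genes had a promoter among those of RefSeq, with 12 promoters in all. GGTGTG or its complement was found in 2 of these 12, with 2 copies at Prss35, which was higher, and 1 at Zfp949, which was lower, beside 19.0% of all 32851 promoters. The longer GGTGTGA, searched on both strands, was found at Zfp949 alone among them, beside 3.98% of all promoters. The GC box was found in 9 of the 12, beside 35.7% of all promoters, and TATAAA in 0 of the 12, beside 13.6%. The windows of Nt5e and Snap91 held 23 and 35 CpG dinucleotides and those of Prss35 and Plscr4 12 and 5, where the median over all promoters was 7. Of the other lower genes, Zfp949 held 6 and the 2 windows of Tpbg 7 and 17. The 2 windows of Me1, slightly higher, held 35 and 4, and Cyb5r4, Snx14 and Syncrip, close to 0, held 19, 24 and 36. The counts thus did not follow the direction of the ratios. These matches describe letters in a short window and show no binding.

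The metabolic enzymes among the 10 genes had small ratios. Me1, the cytosolic malic enzyme that makes NADPH, lay 7 places before Tbx18 and next to Prss35 among the tested genes. Its brightest probe was at 11.90 and 11.88 in the knockout RNAs, against 11.74 and 11.60 in the control RNAs. The groups did not overlap, and all 3 probes were higher in both pairs. Their mean ratios were 0.22 ± 0.087, 0.31 ± 0.15 and 0.32 ± 0.075 (SD, n = 2 pairs). The size on the brightest probe was reached or passed by 10.1% of all genes tested. Cyb5r4, a reductase with a haem-binding domain, lay 3 places before Tbx18. Its brightest probe was at 12.41 and 12.53 in the knockout RNAs, against 12.33 and 12.45 in the control RNAs, which overlap. The mean ratios of its 3 probes were 0.081 ± 0.0031, -0.026 ± 0.15 and -0.087 ± 0.24 (SD, n = 2 pairs). They lie on both sides of 0, so its direction depends on the probe, and it was at -0.011 with its probes averaged.

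The remaining genes encode proteins that bind nucleic acids. Zfp949, a zinc finger protein, lay 5 places after Tbx18. Its brighter probe was at 11.45 and 11.65 in the knockout RNAs, against 12.04 and 12.06 in the control RNAs. Its dimmer probe was at 11.24 and 11.34 in the knockout RNAs, against 11.76 and 11.83 in the control RNAs. On both probes the groups were apart. The mean ratios of -0.50 ± 0.12 and -0.50 ± 0.021 (SD, n = 2 pairs) were alike, a 1.41-fold lower signal. Zinc finger genes have many relatives of similar sequence, and cross-hybridisation of its probes was not tested. Syncrip, an RNA-binding protein of messenger RNA complexes, lay 3 places after Tbx18. Its brighter probe was at 13.86 and 14.00 in the knockout RNAs, against 14.00 and 14.09 in the control RNAs, where the male knockout RNA was level with the female control RNA. The mean ratios of its 2 probes were -0.11 ± 0.034 and -0.021 ± 0.017 (SD, n = 2 pairs).

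**Figure D2:**
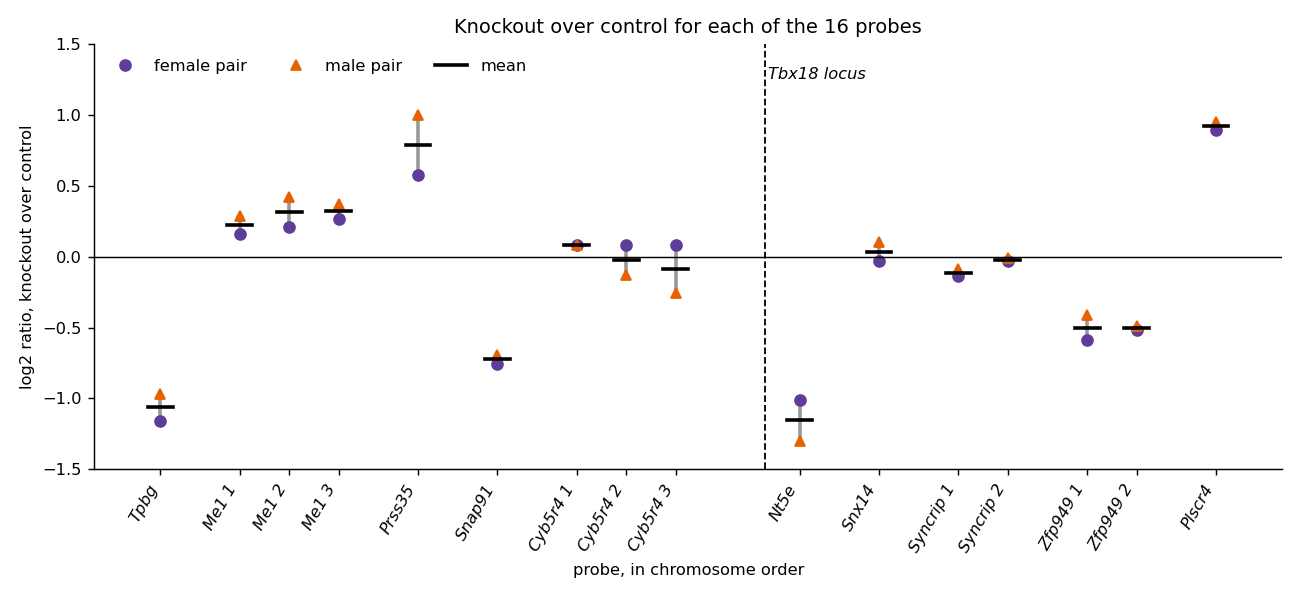
Log2 ratio of knockout over control (vertical axis) for each of the 16 probes in chromosome order (horizontal axis, not to scale), with circles for the female pair, triangles for the male pair and a black bar for their mean; numbers after a name count its probes from the brightest. The genes nearest to the locus include Nt5e at -1.15 as well as Snx14 at 0.034 and Cyb5r4 at 0.081.

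Ratios of neighbouring genes were set side by side. Nt5e at -1.15 is followed directly by Snx14 at 0.034 and Syncrip at -0.11, and Zfp949 at -0.50 lies further out. On the other side Cyb5r4, at 0.081, is closer to Tbx18 than Snap91 at -0.72 and Tpbg at -1.06. Tested genes outside the 10 lay between them. Cep162, the neighbour of Tbx18 on the side of Cyb5r4, was at 0.12 ± 0.033 (SD, n = 2 pairs), and Mrap2 and Ripply2, which stand between Cep162 and Snap91, were at -0.010 and 0.013. These 3 were named after their values were seen, and none of them passed (limma, adjusted p = 0.513, 0.989 and 0.987). Mrap2 and Ripply2 were dim. In the male control channel 2 of the 4 spots of Mrap2 and 3 of the 4 of Ripply2 were well above background. Their ratios near 0 therefore say little about a change in either gene.

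A wider neighbourhood was taken as the 50 tested genes on each side of Tbx18, which included all 10 genes. Places count tested genes and do not measure distance, which is uneven. The promoter windows start at chr9:85842130 for Tpbg (the first of 2), 87731211 for Tbx18, 88327359 for Nt5e, 88547770 for Zfp949 and 92457128 for Plscr4. RefSeq lists 119 genes between and including Tpbg and Plscr4, of which 42 had a probe and 32 were tested. At an adjusted p under 0.05 (limma, Benjamini-Hochberg over all genes) 3.68% of all genes tested were called, 1.87% higher and 1.81% lower. In the neighbourhood 8 of 100 were called, and 6 of these 8 were the genes described above, so this count follows from how they were chosen and nothing is read from it. Of the 90 others, 2 were called, or 2.22%, and both rose. The median size of change was 0.071 log2 units over the 100 neighbours and 0.066 over the 90 others, beside 0.058 over all genes tested. The signed medians were 0.017 in both cases, beside -0.0021 over all genes.

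Both called neighbours outside the 10 genes were at 0.44, somewhat smaller in size than Zfp949 at -0.50, where the median size over all genes was 0.058. The transcript 9330159M07Rik, named for completeness after its value was seen, lay 9 places after Tbx18. It was at 10.16 and 10.11 in the knockout RNAs, against 9.68 and 9.70 in the control RNAs, a ratio of 0.44 ± 0.045 (SD, n = 2 pairs, limma, adjusted p = 0.0199). Mlip, which encodes a lamin-interacting protein of muscle, lay 48 places before Tbx18, near the edge of the neighbourhood. It was at 7.47 and 7.46 in the knockout RNAs, against 6.95 and 7.10 in the control RNAs, a ratio of 0.44 ± 0.12 (SD, n = 2 pairs, limma, adjusted p = 0.0298). In the male control channel 1 of its 4 spots was well above background. The call of 9330159M07Rik was lost with the processed signals, the deposited value table and median centring, and that of Mlip with median centring and a stricter filter.

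**Figure D3:**
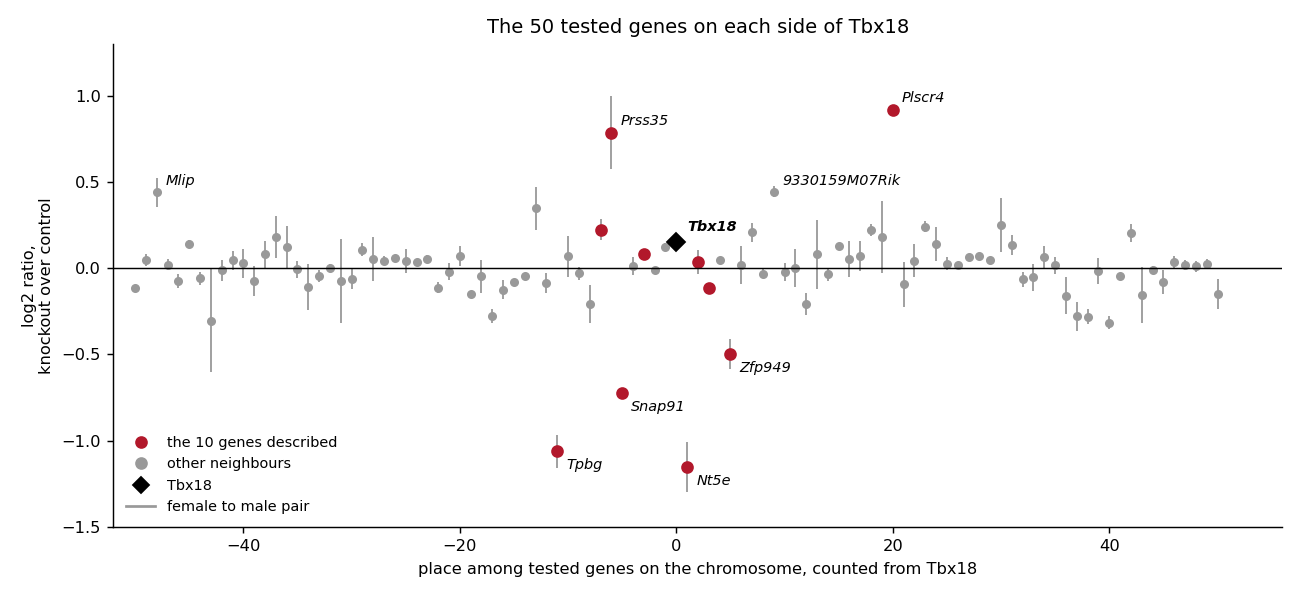
Log2 ratio of knockout over control (vertical axis) for the 50 tested genes on each side of Tbx18, by their place in the order of tested genes (horizontal axis), with the 10 genes described in red, other neighbours in grey, Tbx18 as a black diamond and bars from the female to the male pair. Nt5e, Tpbg, Snap91 and Zfp949 lie below and Plscr4 and Prss35 above the band of grey points, which runs from -0.32 to 0.44.

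In bins of 25 tested genes along chromosome 9, the bins next to Tbx18 had 3 called genes on the side of Tpbg and 4 on the side of Nt5e. Of these 7 calls 6 are among the 10 genes, so the counts of both bins follow from the choice of genes and nothing is read from them. Elsewhere on the chromosome, bins of 25 genes held between 0 and 3 called genes. Chromosome 9 as a whole had 33 called genes of 854, or 3.86%. Without the 10 genes, the 20 nearest tested genes on each side held 1 called gene of 30, or 3.33%, and the genes at places 21 to 50 held 1 of 60, or 1.67%.

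The same view was taken of the floxed loci, where knockout and control ureters both carry at least 1 targeted allele by their labels. Around Tbx2 on chromosome 11, 8 of 100 neighbours were called, 6 higher and 2 lower, and around Tbx3 on chromosome 5 2 of 100, 1 in each direction. Over all genes tested 3.68% were called, 1.87% higher and 1.81% lower. The direct neighbours on one side stood out by value: 2610027K06Rik beside Tbx2 was at 0.73 ± 0.023 and AW549542 beside Tbx3 at -1.05 ± 0.18 (SD, n = 2 pairs each, limma, adjusted p = 0.00284 and 0.00173), each close to the ratio of its T-box gene. Both were named after their values were seen, and whether their probes share a transcript with the T-box genes was not tested. By the rule for naming, Rnu3b1 fell by 1.07 on the log2 scale and Tmem100 (0.75), Septin4 (0.55) and Ypel2 (-0.38) also passed around Tbx2, and Tesc (0.60) around Tbx3 (limma, adjusted p between 0.000657 and 0.0317). Around Tbx18, at 0.15, the direct neighbours were Cep162 at 0.12 and Nt5e at -1.15. The difference between the 3 neighbourhoods was not tested.

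**Figure D4:**
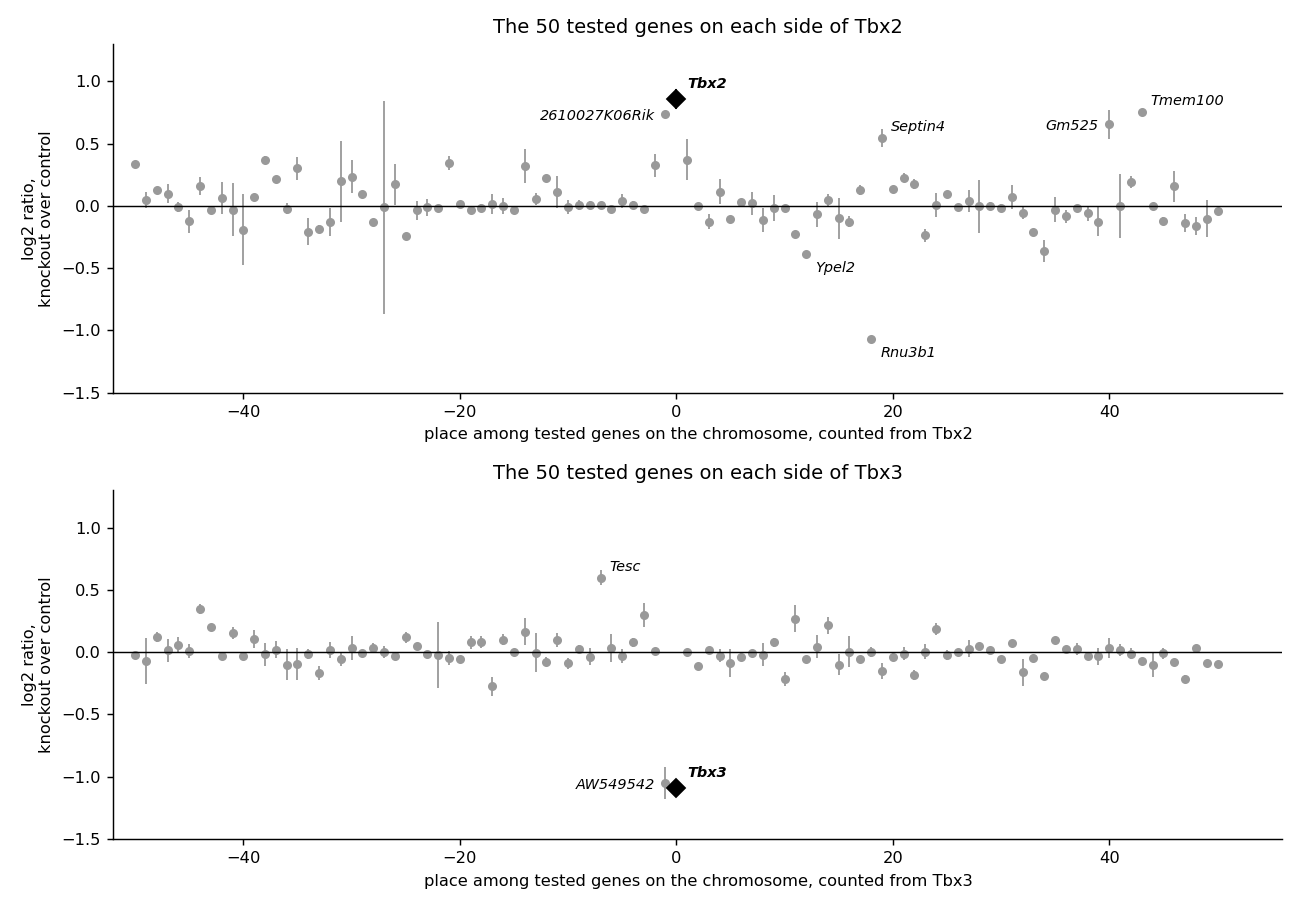
Log2 ratio of knockout over control (vertical axis) for the 50 tested genes on each side of Tbx2 (top) and Tbx3 (bottom), by place in the order of tested genes (horizontal axis), with the T-box gene as a black diamond and bars from the female to the male pair. 2610027K06Rik at 0.73 lies beside Tbx2 at 0.86, and AW549542 at -1.05 beside Tbx3 at -1.09.

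Relatives of the 10 genes were listed to set beside them, most of them elsewhere in the genome. Of 17 relatives, 15 were tested, 1 rose, 0 fell and 14 did not pass, beside 1.87% of all genes called higher, and the median ratio was -0.020. The relative that rose was Prss23, a secreted protease related to Prss35, at 0.90 ± 0.039 (SD, n = 2 pairs, limma, adjusted p = 0.00138). At an unadjusted p under 0.05 (limma), 3 relatives were higher and 1 lower. The share of all genes at this unadjusted threshold is not given here, so nothing is read from these counts. The scramblase genes Plscr1 and Plscr2, which sit 18 and 19 places after Tbx18 beside Plscr4, were at 0.22 ± 0.053 and 0.18 ± 0.29 and did not pass (adjusted p = 0.180 and 0.578), while Plscr4 was at 0.92. Both were named after their values were seen.

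Because Nt5e makes adenosine outside the cell, other genes of adenosine and nucleotide handling were listed. Some of them act inside the cell, so the list is wider than the route of Nt5e. Of 21 genes, 18 were tested, 3 rose, 0 fell and 15 did not pass, beside 1.87% of all genes called higher, and the median was 0.034 (0.17 in the female and 0.046 in the male array). At an unadjusted p under 0.05 (limma) the counts were 7 higher and 1 lower. Nothing is read from these, since the share of all genes at the unadjusted threshold is not given here. Adk, the kinase that turns adenosine back into AMP inside the cell, was at 0.46 ± 0.028, Enpp2, an ecto-enzyme of the family that acts on nucleotides and best known for making lysophosphatidic acid, at 0.39 ± 0.015, and the adenosine receptor Adora1 at 0.38 ± 0.068 (SD, n = 2 pairs each, limma, adjusted p = 0.0163, 0.0291 and 0.0394).

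Whole ureters were measured, so fewer cells of a type and less RNA per cell cannot be told apart. Of 8 smooth muscle genes 8 fell, beside 1.81% of all genes called lower, with a median of -2.83, and their summed log2 level lay between 16.49 and 16.54 in the knockout RNAs, against 18.34 to 18.59 in the control RNAs. Summed levels here add the unlogged intensities of a list before log2 is taken. The brightest probes of a list therefore weigh most in its sum. A neural list of 10 genes had 2 that rose, Fabp7 at 0.71 and Prph at 0.69 (limma, adjusted p = 0.00321 and 0.00448), beside 1.87% of all genes called higher, and at an unadjusted p under 0.05 5 of the 10 were higher and 0 lower. Its summed level lay between 16.04 and 16.14 in the knockout RNAs, against 16.07 to 16.14 in the control RNAs. Snap91, a gene best known from neurons, was at -0.72 beside a neural list with a median of 0.16 (0.093 female, 0.22 male). Endothelial and immune lists of 5 genes each had medians of 0.23 and 0.17, the urothelial list of 8 genes, the epithelium of the ureter, -0.041, and a list of 4 nephron genes 0.21. From 1 pair alone these medians were 0.063 (female) and 0.32 (male) for endothelium, 0.18 and 0.16 for immune cells, 0.042 and -0.11 for urothelium and -0.044 and 0.46 for nephron genes, so the sign of the last pair of lists turned between the arrays. Of these 4 lists 0 genes passed, while at an unadjusted p under 0.05 (limma) 2 endothelial, 3 immune and 1 urothelial genes were higher and 2 urothelial genes lower. Nothing is read from the unadjusted counts of these or of the neural list. The share of all genes at that threshold is not given here. Summed levels were 16.14 to 16.49 in the knockout RNAs, against 16.04 to 16.08 in the control RNAs, for endothelium, 14.29 to 14.32 (knockout) against 14.13 to 14.15 (control) for immune cells, 16.47 to 16.54 (knockout) against 16.50 to 16.63 (control) for urothelium and 12.10 to 12.66 (knockout) against 11.87 to 12.16 (control) for nephron genes. The upper knockout sums for endothelium and nephron genes were those of the male RNA. In the male pair Egfl7 was at 0.85 (-0.20 female) and the other endothelial genes between 0.21 and 0.36. Six2 and Wt1 were at 1.11 and 0.79 in the male pair (-0.34 and -0.032 female), and Pax2 and Lhx1 at 0.14 and -0.062. The part of these cell types in the values of the 10 genes was not tested.

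The values of the 10 genes were recomputed under 11 other ways to normalize, filter and join the probes. Tpbg ranged from -1.07 to -1.03, Nt5e from -1.23 to -1.12, Zfp949 from -0.52 to -0.47 and Snap91 from -0.82 to -0.69. Prss35 ranged from 0.77 to 0.85 and Plscr4 from 0.91 to 1.29. All 6 of these, with Me1, Snx14 and Syncrip, had the same sign under 11 of 11 alternatives, and Cyb5r4 had it under 9. Not all of the 11 alternatives could change these values. Other filters on dim probes and keeping non-uniform spots left each value as it was, since every spot of the 10 genes was already kept. For the genes with 1 probe (Tpbg, Prss35, Snap91, Nt5e, Snx14 and Plscr4), joining probes in other ways could not change the value either. The range over the alternatives was narrower than the distance between the pairs for Prss35, Tpbg, Nt5e and Zfp949, and wider for Snap91 and Plscr4.

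**Figure D5:**
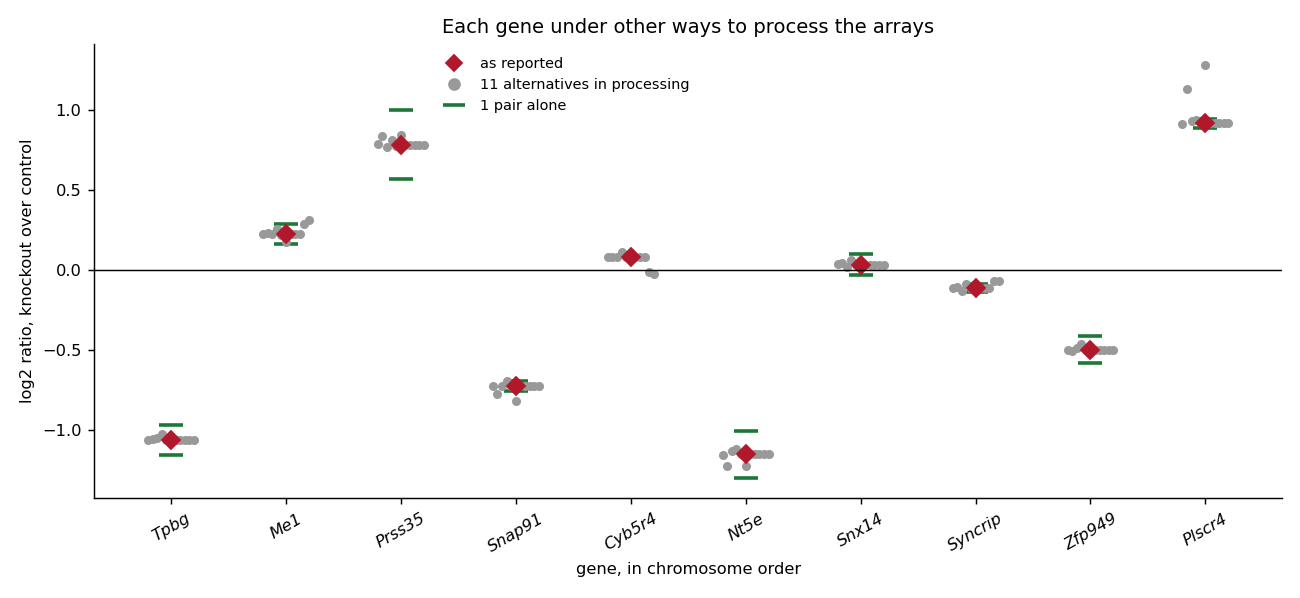
Log2 ratio of knockout over control (vertical axis) for each of the 10 genes in chromosome order, as reported (red diamonds), under 11 alternatives in processing (grey points, spread sideways) and from 1 pair alone (green bars). The 4 lower and 2 higher genes stay on their side of 0 throughout, and Cyb5r4 crosses 0 when its probes are averaged or taken one by one. Snx14 lies on both sides of 0 from 1 pair alone, at -0.034 (female) and 0.10 (male).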

How the data were processed

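The submitters' processing notes name Agilent Feature Extraction 10.7.3.1. Per the file headers, each deposited file gives spot and local background intensity per channel before normalization, beside an intensity that the software corrected and dye-normalized (LOWESS). A deposited value table holds a signed-fold score per probe. The sources used here do not describe its making, its median is 1 in both columns, and its direction was set by its correlation with the processed signals over 24839 bright probes (0.982 and 0.984). Over all 39429 probes this correlation was 0.576 and 0.456, and 33.7% and 34.1% of the values are exactly 1. Its floor and centring are unknown.

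Background was corrected by normexp with an offset of 50 on mean intensities, and loess was run within arrays. Levels of single RNAs were then also quantile-scaled on average intensity between arrays. The 186 and 223 non-uniform spots of the female and male arrays were dropped and the 4 spots of a probe averaged. Probes were kept where over 0.5 of their spots were well above background on both arrays in either the knockout or the control RNA, which left 25934 of 39396. The brightest probe stood for a gene. A RefSeq gene table (GRCm38.p6) named 28328 of 39429 probes by accession and gave the order of genes. The array's own build is unknown here.

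Ratios were fitted with limma 3.58.1 in R 4.3.3 over 20629 genes, with 1 residual and 5.24 prior degrees of freedom, so that the spread pooled across genes dominates the p-values. These measure only the spread between these samples. On simulated data known changes were recovered, but the prior varied between draws and more unchanged genes were called than the threshold allows, so single calls near it are weak. Both arrays give the same scan time. The members and lists were chosen with earlier results of these data known. Named were the 10 genes, the T-box genes, called neighbours with standard symbols (up to 12 around Tbx18, up to 4 around Tbx2 and Tbx3, by size), and called genes of the adenosine and relatives lists. Other genes were named after their values were seen. Alternatives were other background corrections, normalizations, filters, probe joinings, variance models, windows, the deposited table and each replicate left out.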

Additional observations from a re-analysis of the deposited data

Results flagged for a closer look

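Several values had opposite signs for the female and the male RNAs. Differences are male minus female. Snx14 differed by 0.14, with -0.034 for the female and 0.10 for the male pair. The dimmer Cyb5r4 probes differed by -0.21 (0.080 female, -0.13 male) and by -0.33 (0.080 female, -0.25 male), while its brightest probe had 0.084 and 0.079. Among neighbours of Tbx18, Plscr2 differed by -0.42 (0.39 female, -0.028 male) and Ripply2 by -0.10 (0.065 female, -0.039 male). The median of the nephron list differed by 0.51 (-0.044 female, 0.46 male) and that of the urothelial list by -0.15 (0.042 female, -0.11 male). The median of the 100 neighbours of Tbx2 differed by -0.011 (0.0059 female, -0.0050 male), and that of all genes tested by 0.015 (-0.0077 female, 0.0074 male). With 1 pair per sex and exchanged dyes, none of these differences was tested.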

How the results depend on the processing

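Over all genes 759 were called, against 463 with the scanner software's processed signals, 242 with median centring and 244 with the deposited value table. Of the 100 neighbours of Tbx18, 8 were called, against 5, 4 and 5 in the same order, and Prss35 and Zfp949 were among those lost each time. The median of the neighbours was 0.017, against 0.026, 0.040 and -0.0012 in that order, 0.0043 with each probe by itself and 0.022 with 25 tested genes on each side, all close to 0. The median size over the 10 genes was 0.61, against 0.64, 0.58 and 0.67 in that order and 0.32 with each probe by itself, where the genes with little change hold more probes. From 1 pair alone the neighbours' median lay between 0.0015 and 0.0065 and the median size over the 10 genes between 0.55 and 0.58, values with no test. The causes of the lower counts were not tested. The fit on ratios within each array is itself the paired analysis, so no replicate block was added. With 2 arrays, no value can be checked against a further sample.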
